A study of Mus musculus with 35 samples.

Results

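The genes described are the receptors and ligands of the Notch pathway in the mouse: the receptors Notch1, Notch2, Notch3 and Notch4, the delta-like ligands Dll1, Dll3 and Dll4, and the serrate-like ligands Jag1 and Jag2. They were taken by name, with no measured value in the rule, and are 9 of 53465 genes in the bulk table, where Ensembl identifiers were mapped to symbols. The study sorted 4 populations from wild-type mouse brain at stage E14.5 by surface antigens and sequenced them as bulk RNA and as single cells. For bulk RNA-seq, 3 brains each gave 1 library of every population, and a library label joins the population (N neural, Mu mural, Ec endothelial, Mi microglial) to the number of the brain, as in Mu-340, Mu-343 and Mu-346. Values of 3 libraries follow the order of the brain numbers. Neural cells were negative for CD45, CD41, CD11b, PECAM1, CD102 and PDGFRβ; mural cells, the pericytes and smooth muscle of vessel walls, were PDGFRβ high and negative for the others; endothelial cells were PECAM1 and CD102 positive; and microglia, the resident macrophages of the brain, were CD45 medium and CD11b positive. Single cells came from 3 wild-type plates sequenced as 11 libraries, with the gate of each well recorded, and the microglial gate there is labelled low for Pdgfrb and Pecam1, positive for cd41 and medium for cd45. In all, 686 wells with over 1500 transcripts were kept: 123 neural, 210 mural, 225 endothelial and 128 microglial. No allele or treatment is given for these wild-type brains, and wells of a knockout line were not used here.

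Notch receptors are single-pass membrane proteins that are activated by ligands on a neighbouring cell. Ligand binding allows an ADAM protease and then gamma-secretase to cut the receptor, and the freed intracellular part joins RBPJ and Mastermind-like proteins on DNA to switch on genes of the Hes and Hey families. In the embryonic brain the pathway is best known for holding neural progenitors back from differentiation through delta ligands on differentiating neighbours, and in vessels for arterial identity, sprout selection and the investment of vessels by mural cells, with NOTCH3 as the receptor typical of mural cells and NOTCH4 of endothelium. DLL3 differs from the other ligands in acting mainly inside the cell that makes it.

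Bulk values are normalized counts, that is, read counts divided by a size factor for each library. The 12 bulk libraries held 17638358 to 98414914 reads in genes, and 1 read was worth 0.264 to 1.77 normalized counts. Median depth per single cell was 7717 transcripts in the neural gate, 6885 in the mural gate, 6408 in the endothelial gate and 10761 in the microglial gate. Single-cell levels are CPM, the transcripts of a gene scaled to 1000000 transcripts of its gate or plate. Plate 3 was thin, with 14, 10, 13 and 6 cells in these gates. The neural bulk libraries were made as TruSeq libraries and the other 9 with SMART-Seq amplification and Nextera XT, after another extraction kit, so in bulk the kit and the neural population cannot be told apart, which bears on every bulk difference with neural cells below. The sorted populations carried their own markers: the summed level of 8 microglial markers was 261186 to 276994 in microglia and at most 176 elsewhere, that of 8 mural markers 707939 to 762954 in mural cells and at most 7008 elsewhere, and that of 8 endothelial markers 167739 to 202214 in endothelium and at most 11724 elsewhere. The 8 neural markers summed to 125092 to 136091 in neural libraries and to 21819 to 43173 in mural libraries, where Fabp7, a fatty acid binding protein of radial glia, carried most of it (mean 26942 normalized counts, against 7602 in neural libraries). A list of 7 neuron markers summed to 60314 to 122449 in mural and 126237 to 145917 in neural libraries, and one of 7 progenitor markers to 38143 to 60687 and 54845 to 61252. In single cells the neuron list stood at 487 CPM in the mural and 5358 in the neural gate and the progenitor list at 2186 and 2045, and the part of these genes in the mural and neural differences below was not tested. In bulk, 5 border macrophage markers summed to 14920 to 18717 in microglial libraries (at most 994 elsewhere). Lists of 5 fibroblast and 5 erythroid markers summed to 5408 to 7745 in mural libraries (at most 2635 elsewhere) and 9572 to 25117 in endothelial libraries (at most 8885 elsewhere). Their part in the levels below was not tested. The single cells were taken from 3 wild-type brains, but no label ties a plate to a brain, so single-cell p-values measure only the spread between plates.

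Levels of the 9 members were compared between populations, and combinations of members were not tested. Against the mean of the other 3 populations on the log2(normalized count + 1) scale, 6 of the 9 members differed in neural cells by limma at an adjusted p under 0.05, 5 higher and 1 lower (of all 19765 genes tested, 32.9% were higher and 31.2% lower). In mural cells 2 were higher and 1 lower (19.3% and 22.7% of all genes), in endothelial cells 5 were higher and 4 lower (19.7% and 22.4%), and in microglia 5 were lower and none higher (22.3% and 23.4%). An exact permutation test of 3 libraries against 9 gave an unadjusted p under 0.05 for 14 of these 23 calls. It did not for Notch3 in any population (p = 0.0591 in neural, 0.127 in mural, 0.123 in endothelial and 0.0636 in microglial cells), Jag1 in mural and endothelial cells (0.109 and 0.186), Notch1 and Dll3 in endothelial cells (0.291 and 0.159) or Notch4 in neural cells (0.314). With the neural libraries left out of the limma fit, Dll1 and Notch2 were called higher in microglia (3.81 and 1.52, adjusted p = 0.0292 and 0.0139). Notch2 was then also called higher in mural cells (1.23, adjusted p = 0.0383). Of the 54 pairwise differences in bulk, 40 were called. Neural minus mural cells had 5 members higher and 1 lower (28.7% and 25.8% of all genes), neural minus endothelial 5 and 3 (30.6% and 27.1%), neural minus microglial 7 and none (30.4% and 29.3%), mural minus endothelial 3 and 4 (13.5% and 14.3%), mural minus microglial 4 and 1 (17.9% and 20.1%) and endothelial minus microglial 5 and 2 (15.3% and 17%). In single cells, where transcripts were summed per plate and gate and tested with edgeR, Jag2 did not pass the filter on low counts and 8 members were tested. There 2 of 8 were higher and 2 lower in the neural gate (22.5% and 17.3% of 9281 genes), 5 were higher and none lower in the mural gate (13.5% and 8.3%), 4 were higher and 2 lower in the endothelial gate (16.4% and 6.96%), and 5 were lower and none higher in the microglial gate (21.2% and 22.2%). Of 48 pairwise differences in single cells, 29 were called. Neural minus mural cells had 2 members higher and 4 lower (17.7% and 15.4% of all genes), neural minus endothelial 3 and 4 (18.1% and 18.3%), neural minus microglia 3 and none (23.2% and 21.2%), mural minus endothelial 2 and 2 (9.17% and 11.5%), mural minus microglia 4 and none (18.8% and 18.9%) and endothelial minus microglia 4 and 1 (18.7% and 17.5%). In bulk, neural libraries lay above the other 9 for 4 members (25.2% of all genes did), endothelial libraries above for 3 (6.28%) and below for 2 (2.99%), mural libraries below for 1 (4.3%) and microglial libraries below for 3 (5.97%). Lower bulk signal from fewer cells that make a gene and from less of its RNA in each cell cannot be told apart.

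**Figure D1:**
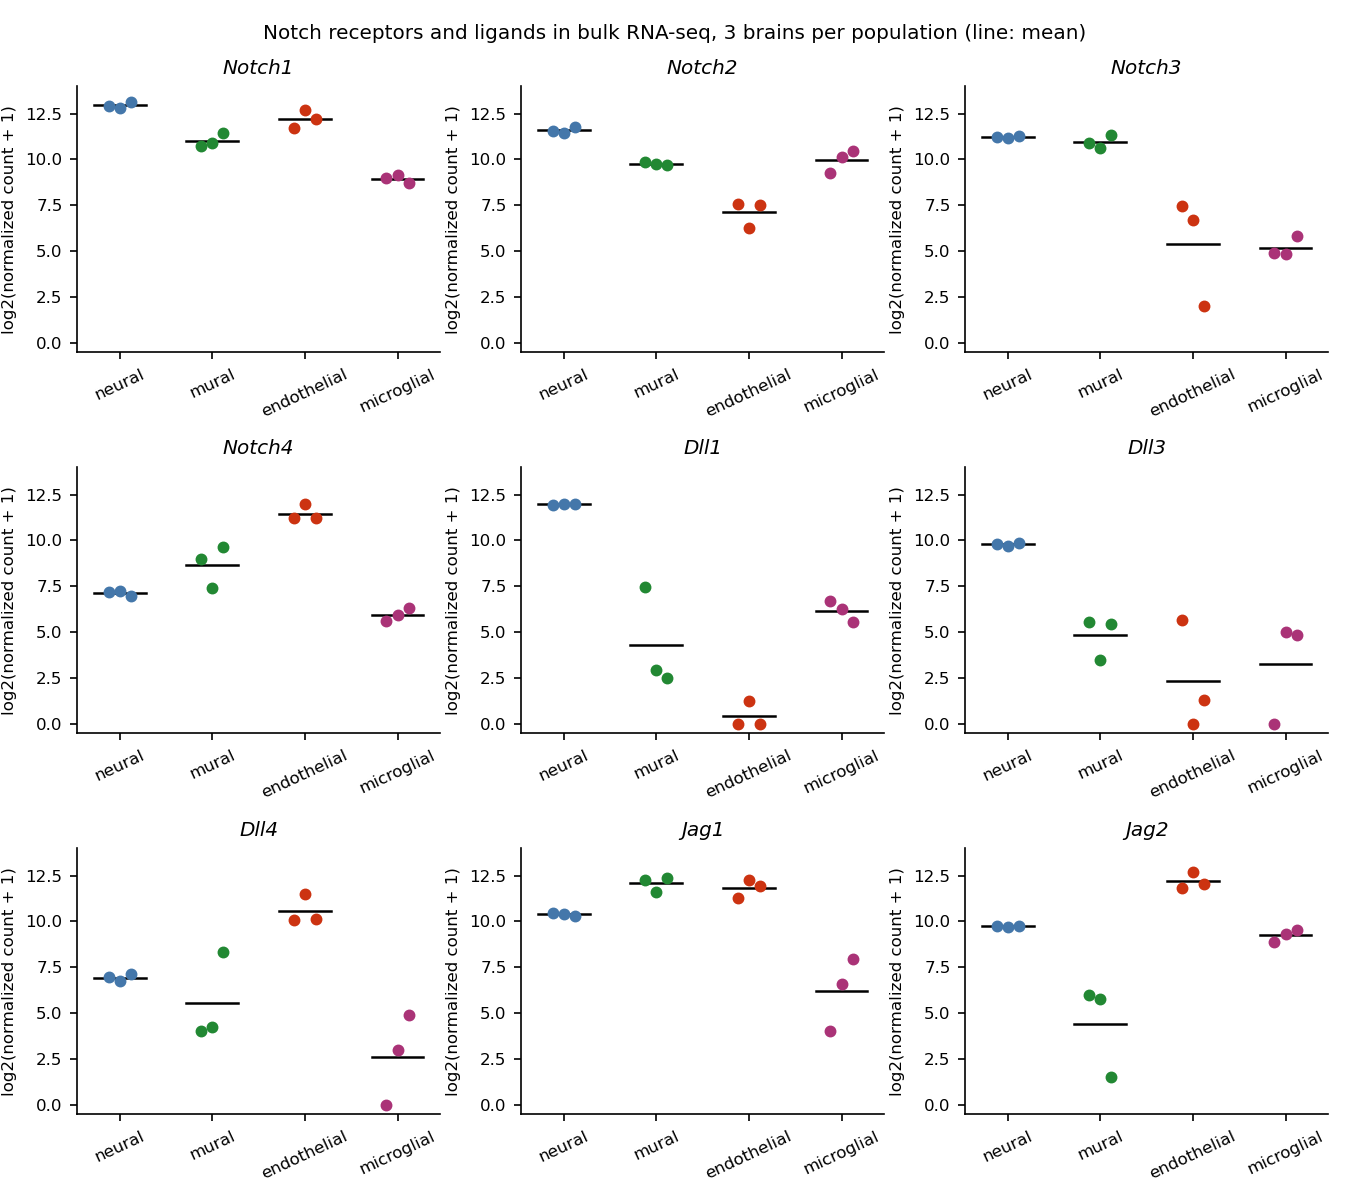
Level of each Notch receptor and ligand in the 12 bulk libraries, as log2(normalized count + 1), by sorted population; each point is 1 library and the line is the mean of 3. The neural libraries lie above all 9 others for Notch1, Notch2, Dll1 and Dll3, and the endothelial libraries lie above all 9 others for Notch4, Dll4 and Jag2.

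Notch1 (ENSMUSG00000026923), the receptor found most widely in development, lies on the minus strand of mouse chromosome 2 at 26457903 to 26516663 (GRCm38, GENCODE vM21, as for all genes here). Neural libraries held 7700, 7235 and 8833 normalized counts, endothelial libraries 3305, 6565 and 4761, mural libraries 1683, 1913 and 2788, and microglial libraries 504, 561 and 428. The 4 populations did not overlap and stood in that order. All 6 pairwise differences were called. The smallest was neural minus endothelial cells at 0.75 on the log2 scale (SE 0.26, adjusted p = 0.0267), which lost its call when any of 4 libraries was left out, at 0.50 without library Ec-340 (adjusted p = 0.0978), 0.76 without library Ec-346 (adjusted p = 0.0541), 0.77 without library N-340 (adjusted p = 0.061) and 0.67 without library N-346 (adjusted p = 0.0903). Mural minus endothelial cells stood at -1.17 (SE 0.26, adjusted p = 0.00591). The single cells gave another order. Notch1 stood at 152 CPM in both the mural and the endothelial gate, where 55.7% and 55.6% of cells held a transcript, at 38.3 in the neural gate (17.1% of cells) and at 6.57 in the microglial gate (5.47%). On plates 1, 2 and 3 the neural gate held 31.0, 35.5 and 87.6, below the mural gate at 160, 145 and 165 and the endothelial gate at 160, 145 and 99.7 on each plate. The neural minus mural difference was -1.92 on the log2 scale (SE 0.33, adjusted p = 3.33e-06) and the neural minus endothelial difference -2.01 (SE 0.33, adjusted p = 1.14e-06), the latter at -1.57 without plate 1 (adjusted p = 0.0655). Mural minus endothelial cells stood at -0.08 (SE 0.26, adjusted p = 0.888).

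Notch2 (ENSMUSG00000027878, plus strand of chromosome 3 at 98013527 to 98150361) is a receptor known from glia, smooth muscle and myeloid cells. Neural libraries held 2974, 2745 and 3511 normalized counts, microglial libraries 619, 1137 and 1408, mural libraries 925, 848 and 842, and endothelial libraries 188, 76.7 and 184. Endothelial libraries lay below and neural libraries above all others, whereas microglia and mural cells overlapped, with a mural minus microglial difference of -0.19 on the log2 scale (SE 0.37, adjusted p = 0.726). Against the mean of the other 3, Notch2 was lower in endothelial cells (-3.31, SE 0.31, adjusted p = 1.44e-05) and higher in neural cells (2.63, SE 0.31, adjusted p = 2.63e-05). Endothelium was also the low population in single cells, with 5.40 CPM against 38.0 in the mural, 25.9 in the neural and 17.5 in the microglial gate. The endothelial gate differed from the mean of the others by -2.19 (SE 0.52, adjusted p = 0.000707), or by -2.13 without plate 1, which ended the call (adjusted p = 0.163). The mural gate stood above the others by 1.35 (SE 0.37, adjusted p = 0.00464), a call that DESeq2 did not make (adjusted p = 0.0819). Neural minus mural cells stood at -0.56 (SE 0.46, adjusted p = 0.389).

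Notch3 (ENSMUSG00000038146, minus strand of chromosome 17 at 32120820 to 32166852) is the receptor of vascular smooth muscle and pericytes. Neural libraries held 2372, 2276 and 2457 normalized counts, mural libraries 1903, 1558 and 2595, endothelial libraries 175, 105 and 3.02, and microglial libraries 28.5, 28.5 and 56.7. Neural and mural libraries overlapped and differed by 0.26 on the log2 scale (SE 1.09, adjusted p = 0.867), and mural exceeded endothelial cells by 5.55 (adjusted p = 0.00328). The SE of 1.09 rests on a spread shared by all 4 populations, not on neural and mural libraries alone. Without library Ec-346 the neural minus mural difference was still 0.26, with a limma adjusted p of 0.545. Against the mean of the others Notch3 was lower in endothelial cells (-3.72, SE 0.89, adjusted p = 0.00687) and in microglia (-3.98, SE 0.89, adjusted p = 0.00395), and both calls were lost without the neural libraries (-2.68 and -2.97, adjusted p = 0.0991 and 0.0594). In single cells Notch3 was highest in the mural gate, at 416 CPM with a transcript in 79.5% of cells (95% exact binomial interval 73.4 to 84.8%). The neural gate stood at 18.6 (11.4% of cells), the endothelial gate at 13.8 (5.78%) and the microglial gate at 6.57 (6.25%). The endothelial and microglial shares come from unequal depths (medians of 6408 and 10761 transcripts), and the endothelial level was 2.10 times that of microglia, which are not known to make Notch3, with a 95% interval of 0.937 to 5.16 that holds 1. The endothelial gate was called lower than the mean of the others (-1.33, SE 0.46, adjusted p = 0.0281), but this was lost under 5 alternatives (adjusted p = 0.0650 to 0.984), at -0.10 without plate 2, -1.13 without plate 1 and -0.32 by DESeq2. On plates 1, 2 and 3 the mural gate held 451, 402 and 288 CPM, and the neural gate 22.1, 16.6 and 10.9. The mural level was 22.3 times the neural one (95% Poisson interval 14 to 37.9, counting error only), and the tested neural minus mural difference was -4.39 on the log2 scale (SE 0.39, adjusted p = 2.79e-14). In the neural bulk libraries the 8 mural markers summed to 363 to 450 normalized counts, against 707939 to 762954 in mural libraries.

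Notch4 (ENSMUSG00000015468, plus strand of chromosome 17 at 34564268 to 34588503) is the endothelial receptor. Endothelial libraries held 2357, 3994 and 2347 normalized counts, mural libraries 500, 171 and 785, neural libraries 146, 151 and 127, and microglial libraries 47.6, 61.7 and 79.3. The 4 populations did not overlap, and the neighbours in that order differed by -2.78 for mural minus endothelial cells (SE 0.50, adjusted p = 0.00182), by -1.53 for neural minus mural cells (SE 0.50, adjusted p = 0.023) and by 1.18 for neural minus microglial cells (SE 0.50, adjusted p = 0.0613). The call between neural and mural cells was lost without library Mu-340 (-1.38), library Mu-346 (-1.05), or any 1 neural library (-1.58 to -1.45). Endothelial cells stood above the mean of the others by 4.19 (SE 0.41, adjusted p = 1.99e-05). The single-cell order was the same, at 148 CPM in the endothelial gate (53.8% of cells), 64.5 in the mural gate (63 of 210 cells), 7.25 in the neural gate (4.88%) and 1.46 in the microglial gate (1.56%). Mural minus endothelial cells stood at -1.23 (SE 0.28, adjusted p = 0.000535), a call lost without plate 1 (-0.70, adjusted p = 0.708), without plate 2 (-1.11, adjusted p = 0.344) or by DESeq2 (-1.03, adjusted p = 0.303), and neural minus mural cells at -3.11 (SE 0.50, adjusted p = 9.41e-07). The neural gate was called lower than the mean of the others (-1.86, SE 0.73, adjusted p = 0.0361), which was lost without plate 1 (-2.19), without plate 2 (-1.49) or with no filter on low counts (-2.00), at adjusted p = 0.0549 to 0.354. In the mural gate 8 endothelial markers summed to 359 CPM, against 6233 in the endothelial gate, and Cdh5, the cadherin of endothelial junctions, was at 0 in the mural gate. The markers were uneven there: their median was 0.888% of the endothelial level, and Emcn, a sialomucin of endothelium, was at 61.4% (102% in bulk). The mural Notch4 level was 43.7% of the endothelial one, and what part RNA of endothelial cells has in it was not tested.

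**Figure D2:**
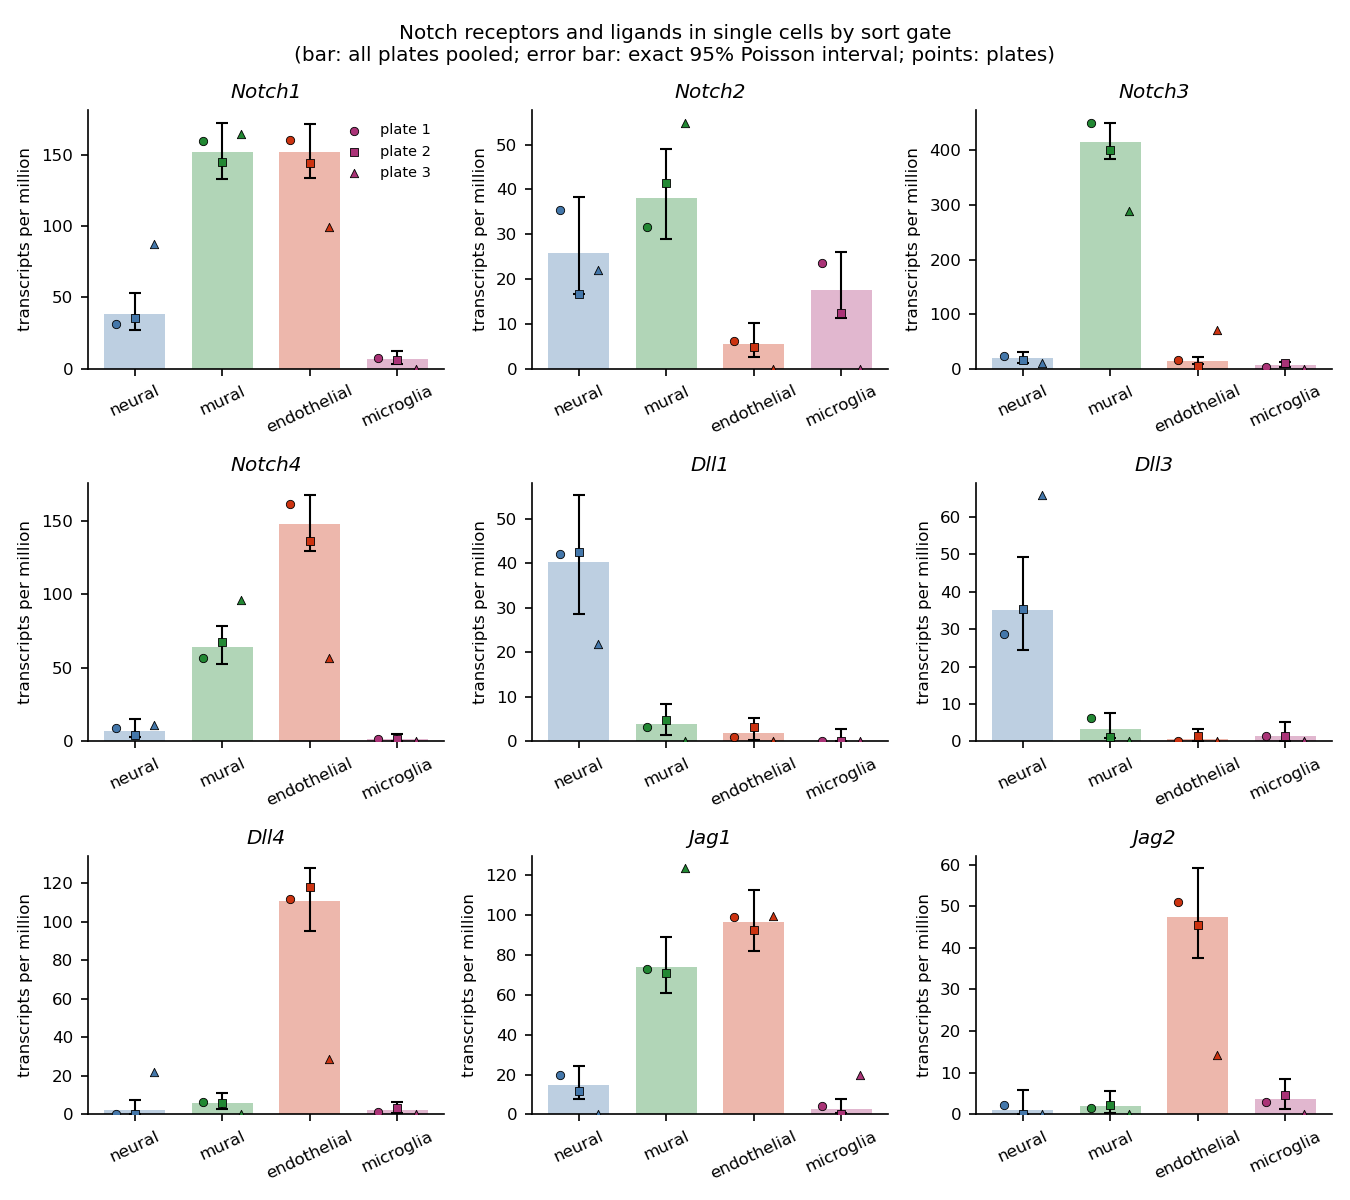
Level of each member in single cells by sort gate, in CPM; bars pool all cells of a gate with exact 95% Poisson intervals, and points are plates 1 to 3. Notch3 stands out in the mural gate at 416, Notch1 stands at 152 in both the mural and the endothelial gate, and Dll1 and Dll3 are highest in the neural gate, at 40.4 and 35.2.

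Dll1 (ENSMUSG00000014773, minus strand of chromosome 17 at 15367354 to 15376872), the delta ligand of differentiating progenitors, had the largest neural difference of the 9 members in bulk. Neural libraries held 3963, 4001 and 4057 normalized counts, microglial libraries 103, 75.9 and 46.6, mural libraries 174, 6.85 and 4.70, and endothelial libraries 0, 1.42 and 0, which is 1 read in all. Neural libraries lay above all others and endothelial libraries below all others, while mural and microglial libraries overlapped. The overlap rests on library Mu-340. Without Mu-340, limma called mural cells lower than microglia (-3.44, adjusted p = 0.00206) and lower than the mean of the others (-3.45, adjusted p = 0.00103). In microglial libraries the 8 neural markers summed to 3647 to 5789 normalized counts, and their part in the Dll1 level there was not tested. The neural difference from the mean of the others was 8.33 on the log2 scale (SE 0.90, adjusted p = 1.49e-05). In single cells Dll1 stood at 40.4 CPM in the neural gate, with 42.1, 42.6 and 21.9 on plates 1, 2 and 3, and at 3.87 in the mural and 1.80 in the endothelial gate. No Dll1 transcript was found in 128 microglia, which allows a share of cells with a transcript of up to 2.84% (exact 95% limit) and sets no limit on cells that make the RNA. The neural level was at least 14.3 times the microglial one by the 95% limit of the ratio, and 18.4 times a floor of 3 transcripts over the microglial gate. It was present in 21.1% of neural cells, against 2.38% of mural and 1.33% of endothelial cells, and exceeded the mean of the other gates by 4.85 (SE 0.58, adjusted p = 4.31e-10).

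Dll3 (ENSMUSG00000003436, minus strand of chromosome 7 at 28293553 to 28302238) was also highest in neural cells. Neural libraries held 895, 835 and 917 normalized counts, mural libraries 46.3, 10.3 and 42.3, microglial libraries 0, 30.8 and 27.7, and endothelial libraries 49.6, 0 and 1.51. Neural libraries lay far above the others, which overlapped one another. The neural difference was 6.31 (SE 1.28, adjusted p = 0.00138). The call of Dll3 as lower in endothelial cells (-3.64, SE 1.28, adjusted p = 0.0417) was lost in most alternatives, at -1.73 without the neural libraries (adjusted p = 0.464) and with the brain as a block (adjusted p = 0.0655). In single cells it stood at 35.2 CPM in the neural gate (19.5% of cells) and between 0.60 and 3.22 in the other gates, a difference of 4.29 (SE 0.56, adjusted p = 4.34e-09). The 250 bases before the RefSeq start of both genes are shown because they are the ligands with the largest neural differences in both assays, with the E-box CAGCTG, read the same on both strands and bound by proneural factors of the basic helix-loop-helix class, and the GC box GGGCGG in capitals.
Dll1 (GRCm38.p6, chr17:15376933-15377182, minus strand): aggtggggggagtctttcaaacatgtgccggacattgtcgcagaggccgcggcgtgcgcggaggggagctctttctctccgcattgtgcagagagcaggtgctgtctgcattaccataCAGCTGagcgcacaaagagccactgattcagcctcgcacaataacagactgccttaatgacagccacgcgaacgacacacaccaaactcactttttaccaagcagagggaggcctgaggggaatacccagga
Dll3 (GRCm38.p6, chr7:28301786-28302035, minus strand): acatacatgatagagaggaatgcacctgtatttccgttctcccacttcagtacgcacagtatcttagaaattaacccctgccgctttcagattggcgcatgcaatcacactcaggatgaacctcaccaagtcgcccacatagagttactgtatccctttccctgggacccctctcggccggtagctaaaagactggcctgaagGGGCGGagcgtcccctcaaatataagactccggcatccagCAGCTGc
CAGCTG occurs in 4271 of 32851 RefSeq windows of this length, and GGGCGG on either strand in 32.7%. A second annotated Dll1 start, with the window chr17:15375824-15376073, has neither. Among the other members CAGCTG was found before Jag1, and the RBPJ core TGGGAA on either strand, present in 21.6% of all windows, was found before none of the 9.

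Dll4 (ENSMUSG00000027314, plus strand of chromosome 2 at 119325784 to 119335962) is the delta ligand of arterial and sprouting endothelium. Endothelial libraries held 1088, 2889 and 1145 normalized counts, neural libraries 124, 107 and 139, mural libraries 15.7, 18.3 and 324, and microglial libraries 0, 7.12 and 29.0. Endothelial libraries lay above all others, and 1 mural library, Mu-346, stood apart from the other two. The endothelial difference was 5.53 (SE 1.07, adjusted p = 0.00191), and microglia were lower (-5.06, SE 1.07, adjusted p = 0.00269). The neural minus endothelial call (-3.63) was lost with a pseudocount of 0.1 or without any 1 neural or endothelial library (limma adjusted p = 0.0532 to 0.114). The mural minus endothelial call (-5.02) was lost with that pseudocount and by edgeR (-3.79, adjusted p = 0.0554). It was also lost without library Mu-340, Mu-343 or Ec-343 (-4.57 to -4.28). In single cells the endothelial gate held 110 CPM with 43.1% of cells positive, and the other gates held 2.07 to 5.80 with 0.813% to 3.81% positive. On plates 1, 2 and 3 the endothelial gate held 112, 118 and 28.5 CPM, the last from 13 cells. The gate exceeded the mean of the others by 5.05 (SE 0.39, adjusted p = 7.95e-17). The annotated antisense transcript Gm14207 overlaps the start of Dll4 and had a mean of 192 normalized counts over the 12 libraries, and the strand setting of the counting is not given in the sources used here. The upstream windows of Dll4 and Notch4 are shown as those of the endothelial delta ligand and receptor, again with GGGCGG in capitals.
Dll4 (GRCm38.p6, chr2:119325534-119325783, plus strand): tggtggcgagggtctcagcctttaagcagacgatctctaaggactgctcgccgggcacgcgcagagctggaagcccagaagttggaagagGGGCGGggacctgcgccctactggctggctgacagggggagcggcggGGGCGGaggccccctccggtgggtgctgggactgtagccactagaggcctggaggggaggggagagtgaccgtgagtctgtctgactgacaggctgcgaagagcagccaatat
Notch4 (GRCm38.p6, chr17:34564045-34564294, plus strand): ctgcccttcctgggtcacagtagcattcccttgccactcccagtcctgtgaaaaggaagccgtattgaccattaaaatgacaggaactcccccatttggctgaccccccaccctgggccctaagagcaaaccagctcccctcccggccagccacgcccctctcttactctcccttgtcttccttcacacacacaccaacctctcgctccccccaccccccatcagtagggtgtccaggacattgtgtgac
Dll4 has 2 GC boxes in this window and Notch4 none. Neither window holds CCGGAA, a core bound by ETS factors, on either strand, which 3952 of the 32851 windows hold.

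Jag1 (ENSMUSG00000027276, minus strand of chromosome 2 at 137081456 to 137116644), a ligand of endothelium and vessel wall, was higher in both vascular populations than in the mean of the others. Mural libraries held 4848, 3110 and 5243 normalized counts, endothelial libraries 2518, 4841 and 3864, neural libraries 1400, 1376 and 1252, and microglial libraries 15.5, 94.9 and 251. Mural and endothelial libraries overlapped and differed by 0.25 (SE 0.75, adjusted p = 0.851; -0.011 without library Ec-340), and microglia lay below all others. Against the mean of the others Jag1 was higher in mural cells by 2.60 (SE 0.61, adjusted p = 0.00599) and in endothelial cells by 2.27 (adjusted p = 0.0126; 2.06 and 0.0517 without library Ec-343), and lower in microglia (-5.23, SE 0.61, adjusted p = 4.34e-05). In single cells it stood at 96.6 CPM in the endothelial gate (40.0% of cells), 74.1 in the mural gate (34.8%), and 2.92 in the microglial gate (3.13%). The neural gate held 14 transcripts of it, in 8.94% of cells. Mural minus endothelial cells stood at -0.48 (SE 0.30, adjusted p = 0.314), and neural minus mural cells at -2.38 (SE 0.45, adjusted p = 1.63e-05). In bulk the same neural difference of -1.68 was not called by limma (SE 0.75, adjusted p = 0.0802), but it was called in the same direction under 6 alternatives, among them edgeR (-1.74, adjusted p = 0.0378) and DESeq2 (-1.73, adjusted p = 0.0128) on whole reads, and without library Mi-340 (adjusted p = 0.00364) or Mi-346 (adjusted p = 0.0260). Without either microglial library the difference stayed at -1.68, and only its p-value changed. Neural minus endothelial cells stood at -1.43 in bulk, also not called by limma (adjusted p = 0.124), and were called under 4 of 20 alternatives.

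Jag2 (ENSMUSG00000002799, minus strand of chromosome 12 at 112907819 to 112929776) was high in endothelium and low in mural cells. Endothelial libraries held 3556, 6727 and 4273 normalized counts, neural libraries 868, 842 and 876, microglial libraries 462, 646 and 735, and mural libraries 63.4, 53.6 and 1.88. The 4 populations did not overlap, and mural cells were at 0.817% of the endothelial mean. Mural minus endothelial cells stood at -7.76 (SE 0.93, adjusted p = 0.000125). Neural minus endothelial cells stood at -2.44. That call was lost when any 1 neural, endothelial or microglial library was left out (-2.64 to -2.18, limma adjusted p = 0.0561 to 0.113). It was also lost with a pseudocount of 0.1 or no minimum (adjusted p = 0.0688 and 0.0639). Endothelial minus microglial cells stood at 2.95 (SE 0.93, adjusted p = 0.032), and this call was lost when any 1 endothelial or microglial library was left out (2.69 to 3.15), and also with a pseudocount of 0.1, no minimum, quantile normalization or no neural libraries (2.93 to 2.95, adjusted p = 0.0544 to 0.0609). In single cells 79 transcripts lay in the endothelial gate, or 47.4 CPM with 29.8% of cells positive, against 1 transcript in the neural, 3 in the mural and 5 in the microglial gate. Jag2 was not tested there, and the endothelial level was 24.5 times the mural one by a ratio of 79 to 3 transcripts (95% interval 8.09 to 121).

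Within a population the members were compared per kilobase of annotated exon in bulk. Notch3 made up 46.1 ± 0.924% (SD, n = 3) of the summed receptor level per kilobase in mural cells, Notch4 49.3 ± 3.53% in endothelium with Notch1 at 46.8%, Notch2 65.8 ± 8.84% in microglia, and Notch1 48.3% in neural cells with Notch3 at 25.5% and Notch2 at 24.7%. Of the ligands, Jag1 made up 93.0 ± 3.48% in mural cells and Dll1 57.7% in neural cells, while endothelium was mixed, with Jag2 at 39.3%, Jag1 at 36.5% and Dll4 at 23.7%. The summed level was lowest in microglia, at 145 normalized counts per kilobase for receptors and 137 for ligands. In neural, mural and endothelial cells these sums were 1152, 540 and 728 for receptors and 1646, 818 and 1788 for ligands. The leading receptor rests on the length scaling in both vascular populations: without it Notch1 led in mural cells at 38.6% against 36.6% for Notch3, and in endothelium at 60.4% against 36.2% for Notch4. The scaling took all annotated exon bases of a gene, 14232 for Notch1 and 8061 for Notch4. Their longest transcripts have 9488 and 6591 bases, and scaling by transcript length was not run. Single cells count transcript ends and need no length scaling. There the leading receptor was that of the length-scaled bulk levels in the mural gate (Notch3, 62.1%), the neural gate (Notch1, 42.5%) and the microglial gate (Notch2, 54.5% of 44 transcripts). In the endothelial gate Notch1 made up 47.6% and Notch4 46.3%. Among the ligands of the endothelial gate Dll4 led at 43.0%, followed by Jag1 at 37.6% and Jag2 at 18.5%, the reverse of the order in bulk, and this change of order was not tested.

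**Figure D3:**
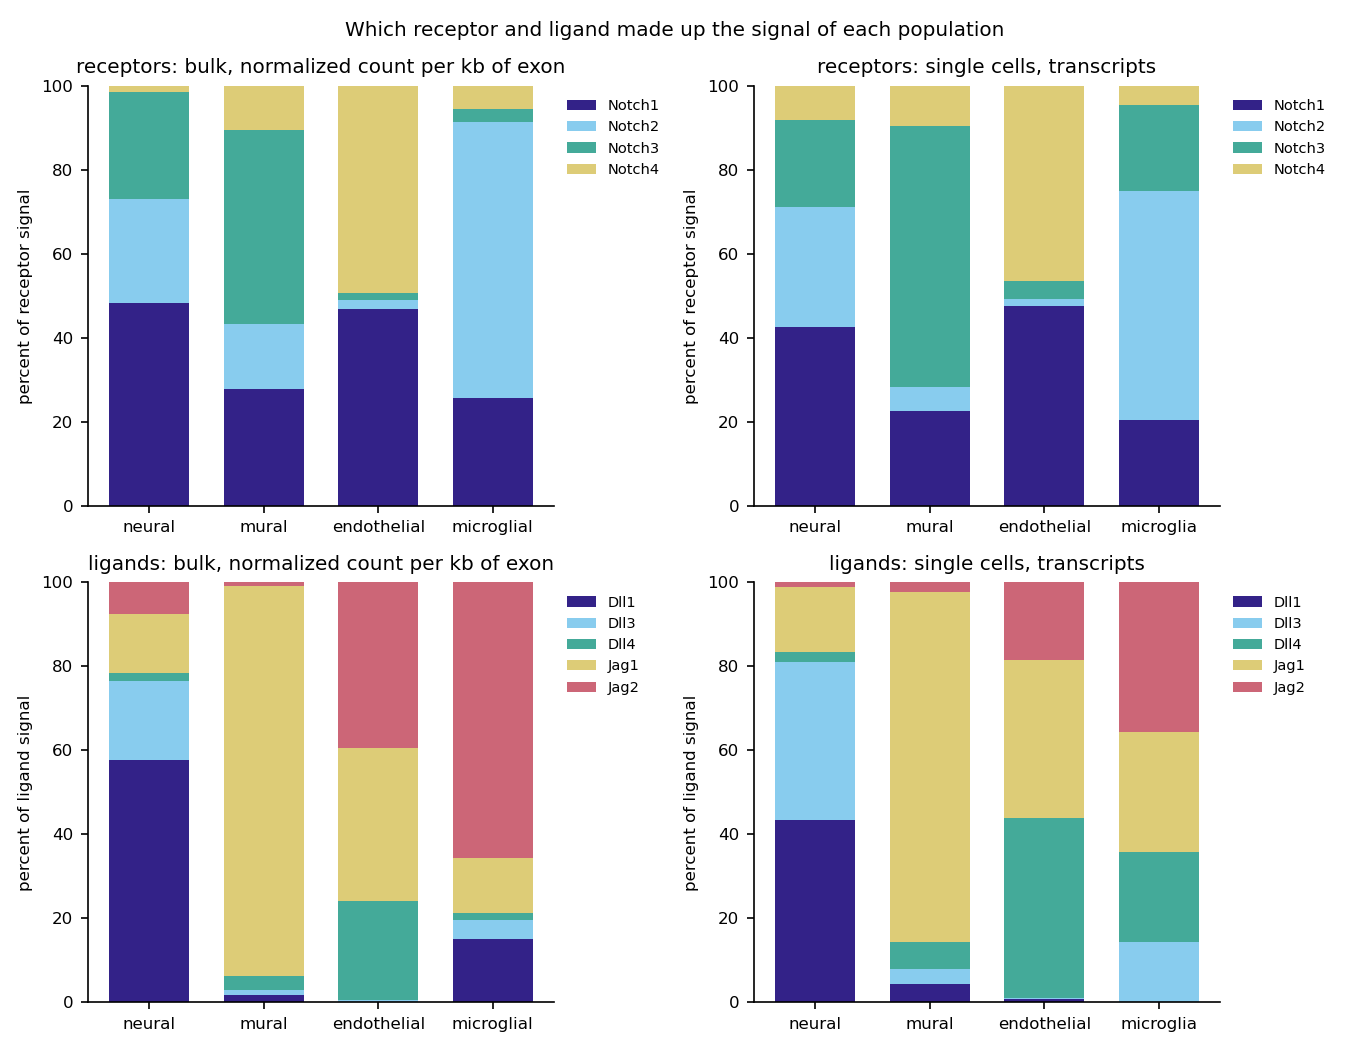
Makeup of the summed receptor level and the summed ligand level in each population, in percent, for bulk libraries (normalized counts per kilobase of exon, mean of 3) and single cells (transcripts pooled over a gate). Jag1 fills most of the mural ligand bar in both assays, at 93.0% and 83.3%, and the microglial ligand bar of single cells rests on 14 transcripts.

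Of the 48 pairwise differences that both assays tested, 26 were called in both, 24 in the same direction and 2 in opposite directions. The opposite ones were Notch1 in neural minus mural and in neural minus endothelial cells. On the scale of log2(level + 1) of pooled gates, the neural minus mural difference in bulk exceeded that in single cells by 3.89 for Notch1, by 4.67 for Notch3 and by 4.57 for Dll1. The gap of Jag2 was larger, at 5.85 (5.32 in bulk and -0.53 in single cells). Its single-cell value rests on 1 neural and 3 mural transcripts. Of 10811 genes with enough transcripts for this comparison, 3.13% had a gap at least as large as that of Notch1 and 1.55% one as large as that of Notch3. The median gap of these genes was 0.14, but it rose with transcript length from -0.93 under 2000 bases to 0.83 from 7000 bases, and with GC content from -0.37 under 45% to 1.27 from 55%. Notch1, with a longest transcript of 9488 bases and 57.1% GC, and Notch3, with 8016 bases and 59.6% GC, are in the upper bin of both. Dll1, with a gap that 1.70% of genes reached, is in the upper bin of neither, with 3581 bases and 54.9% GC. Jag2, with a gap that 0.740% of genes reached, is in the upper bin of GC content alone, with 5106 bases and 61.9% GC. For mural minus endothelial cells, which shared a library kit in bulk, the median gap was -0.04 and stayed between -0.06 and -0.02 over the bins of length, but with GC content it fell from 0.25 under 45% to -0.60 from 55%. What part kit, transcript length and GC content have in the neural differences was not tested.

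**Figure D4:**
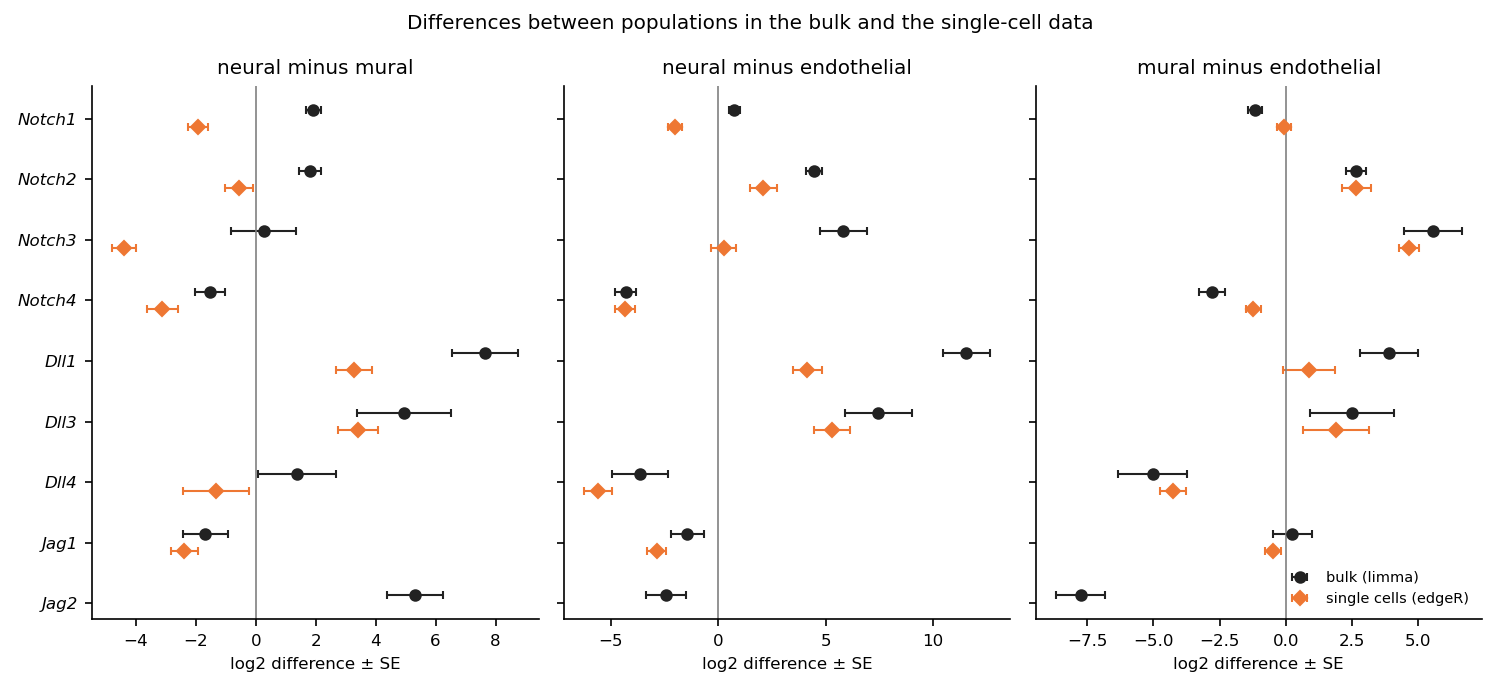
Difference between populations for each member on the log2 scale, with standard errors, in bulk (limma) and in single cells (edgeR), for neural minus mural, neural minus endothelial and mural minus endothelial; Jag2 has no single-cell value because it did not pass the count filter. Notch1 lies on opposite sides of 0 in both neural panels, at 1.93 and -1.92 against mural cells and at 0.75 and -2.01 against endothelial cells.

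The neural gate holds progenitors and neurons, and its 123 cells were split by whether the summed transcripts of progenitor markers or of neuron markers were larger, which gave 38 and 83 cells with 2 ties and 11 cells within 2 transcripts of the cut. Such a split is a range of a score and not a cell type, and it was not tested over plates. Notch1, Notch2 and Notch3 were higher on the progenitor side: Notch1 stood at 94.0 CPM there (95% Poisson interval 62.0 to 137) against 15.0 on the neuron side (7.19 to 27.6), Notch2 at 76.6 (48.0 to 116) against 3.0 (0.363 to 10.8), and Notch3 at 41.8 (21.6 to 73.0) against 9.0 (3.30 to 19.6). The intervals of the receptors did not overlap, and they cover counting error only. The intervals of the delta ligands overlapped, with Dll1 at 41.8 against 37.5 and Dll3 at 38.3 against 34.5. Median depth was alike at 7918 and 7680 transcripts. For Notch1 the plates held 73.5, 132 and 79.6 on the progenitor side and 6.99, 6.35 and 90.6 on the neuron side, where plate 3 rests on 6 transcripts, so plate 3 did not show the difference. Among the 225 endothelial cells, 108 with a transcript of a tip-cell marker had Dll4 at 124 CPM against 91.1 in the other 117, but their median depth was 8411 against 4934 transcripts and 176 cells lay within 2 transcripts of the cut. Only 4 mural cells had a larger sum of smooth muscle markers than of pericyte markers, so pericytes and smooth muscle were not compared.

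**Figure D5:**
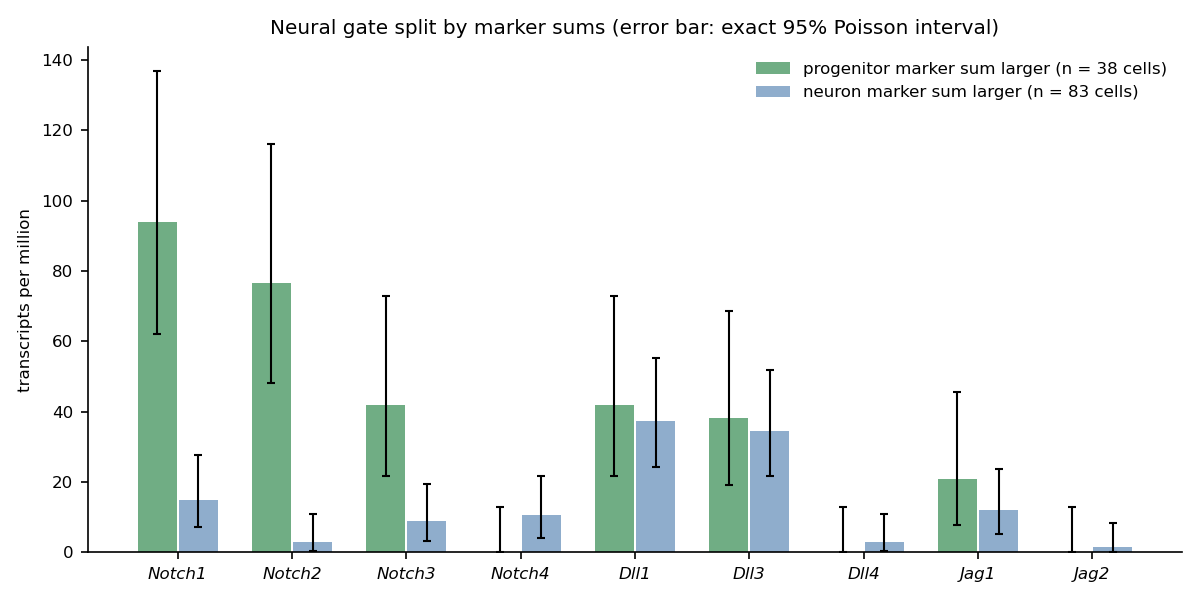
CPM of each member in neural-gate cells with a larger sum of progenitor markers (38 cells) or of neuron markers (83 cells); bars pool plates and whiskers are exact 95% Poisson intervals for counting error. Notch1, Notch2 and Notch3 are higher on the progenitor side without overlap of intervals, at 94.0 against 15.0, 76.6 against 3.0 and 41.8 against 9.0, and the intervals of Dll1 and Dll3 overlap.

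Receptors and ligands were found together in different shares of cells by gate, and the gates were not tested against one another. In 129 of 225 endothelial cells (57.3%) at least 1 receptor and 1 ligand had a transcript, in 83 both Notch1 and Notch4, in 61 both Dll4 and Notch1, and in 59 both Dll4 and Notch4. Of 210 mural cells, 83 (39.5%) held a receptor and a ligand, 102 (48.6%) Notch1 and Notch3 together and 66 (31.4%) Jag1 and Notch3. In the neural gate 23 of 123 cells held a receptor and a ligand, and 8 held Dll1 and Notch1, while 2 of 128 microglia (1.56%) held a receptor and a ligand. These shares follow depth and level, and cells lacking a transcript are not shown to lack the RNA.

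The other genes of the pathway were taken as lists of 50 genes by role, of which 48 were tested in bulk. Of 7 canonical targets, 4 were higher in mural cells and none lower, namely the transcription factors Hes1, Hey1, Hey2 and Heyl, with a median difference of 1.14 against -0.10 over all genes (19.3% of all genes were higher and 22.7% lower). Heyl held 9133, 8483 and 13444 normalized counts in mural libraries and at most 303 in any other library, a difference of 9.14 (SE 1.59, adjusted p = 0.000977). In endothelial cells 2 of the 7 were higher, Hes1 and Hey1, and 1 lower, Dtx1 (19.7% and 22.4% of all genes), with a median of -1.42 against -0.12 over all genes. Hes1 was higher in mural (2.50) and endothelial cells (1.80) and lower in neural cells (-2.04). In microglia 5 of the 7 were lower and none higher (22.3% and 23.4% of all genes), among them Hey1 (-4.07, adjusted p = 1.12e-07). In neural cells 3 were higher and 1 lower, near the shares over all genes (32.9% and 31.2%), the higher ones being Hes5, the target typical of neural progenitors (1.89, adjusted p = 0.019), the feedback inhibitor Nrarp (2.71) and the ubiquitin ligase Dtx1 (7.99). In single cells 5 of 6 tested targets were higher and none lower in the mural gate (13.5% and 8.3% of all genes), and 6 of 6 were lower in the microglial gate (21.2%). In the endothelial gate 2 of 6 were higher and none lower (16.4% and 6.96%). Their median there was 0.47 against -0.02 over all genes, unlike the negative median in bulk. The neural gate had 2 higher and 1 lower (22.5% and 17.3%).

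Of 10 genes that ubiquitinate ligands or glycosylate receptors, 6 were higher and 1 lower in neural cells (32.9% and 31.2% of all genes), and none higher and 6 lower in mural cells (19.3% and 22.7%). Single cells did not show these counts: of 8 genes tested, 2 were higher and 1 lower in the neural gate (22.5% and 17.3% of all genes), and likewise 2 and 1 in the mural gate (13.5% and 8.3%). Fringes are glycosyltransferases that shift the response of NOTCH receptors between delta and jagged ligands. Mfng held 3197, 4961 and 4176 normalized counts in endothelial libraries, 2483, 2535 and 2622 in neural libraries, 1870, 1248 and 1710 in microglial libraries, and 38.0, 97.0 and 0 in mural libraries, where it was lower (-7.34, SE 1.02, adjusted p = 0.000229). Lfng was also lower in mural cells (-3.44, adjusted p = 8.43e-05). Eogt, which adds N-acetylglucosamine to EGF repeats, stood at 7348, 8985 and 7781 in endothelial libraries, 4.98 above the mean of the others (SE 0.38, adjusted p = 3.68e-06). Of these genes, Mfng was lower in the mural gate (-3.83, adjusted p = 9.26e-09) and Eogt higher in the endothelial gate (4.71, adjusted p = 4.97e-22) in single cells too, with Mfng in 37.8% of endothelial and 1.90% of mural cells and Eogt in 65.3% of endothelial and 7.14% of mural cells. Of 9 genes for cleavage, 7 were higher and 1 lower in microglia in bulk (23.4% and 22.3% of all genes), and of 8 tested in single cells 6 were higher and 1 lower (22.2% and 21.2%). Of the non-canonical ligands, Dlk1 was highest in mural cells (mean 8393 normalized counts), Dner in neural cells (4217) and Egfl7 in endothelium (26900).

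Across the 12 bulk libraries the genes most like each member, by Pearson correlation of log2(normalized count + 1), are given as a description, since the libraries share population, kit and brain. Dll1 was nearest to Snap25, a synaptic protein (r = 0.985), Notch1 to the adhesion protein gene Nectin1 (0.993) and, at 0.980, to the ephrin Efnb2, Jag1 to Fam213a (0.985) and the netrin receptor gene Unc5b (0.982), Jag2 to Smad3 (0.963) and the fringe Mfng (0.959), Dll3 to Gm38393 (0.983), Dll4 to Nrgn (0.969), and Notch4 to Gm26484 (0.982) and Cdkn2b (0.976). None of the genes named as nearest lay within 10 kb of its member.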

How the data were processed

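Per the study's methods and the submitters' processing notes, the authors aligned bulk reads to mm10, counted them per gene and deposited DESeq2-normalized counts (a signal per gene); dividing each library by the value of 1 read gave whole reads, to within 0.01, for 124030 of 124030 values up to 100 reads (100.0%). The deposited single-cell tables hold numbers of transcripts per gene and well, made by the authors from unique molecular identifiers of mCEL-Seq2 libraries. Depth and the edgeR sums used these numbers as deposited, and wells with 1500 transcripts or fewer were left out. For levels, ratios and shares of cells, the transcripts of a gene are whole identifiers recovered from these numbers. CPM divides them by the deposited transcripts of all genes. Doublets were not called. Each library uses 96 cell barcodes that other libraries reuse by design.

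No measured value enters the rule for the 9 members, but these genes and the pathway lists were proposed with earlier results of these data known. Genes named in the text are the members, the genes of the pathway lists and, for each member, the 3 most correlated genes. Outside this rule, the markers Fabp7, Cdh5 and Emcn and the antisense gene Gm14207 were named after their values were seen. Bulk values were tested on log2(normalized count + 1) with limma 3.58.1 (trend, R 4.3.3) over 19765 genes with a mean of at least 10, with all 12 libraries in 1 fit, and Benjamini-Hochberg adjustment over all genes. The populations share the spread of that fit, so each p-value also draws on populations outside its comparison. Single-cell transcripts were summed per plate and gate and tested with edgeR 4.0.16 quasi-likelihood over 9281 genes, and standard errors there were derived from its F statistic. Both fits were run on simulated counts with the same spread setting for all genes and equal group means for unchanged genes. These data differ in both respects, so the simulation cannot show how the tests behave on them. As a second test in bulk, exact permutation of 3 libraries against 9 (220 splits, two-sided, smallest p 0.00455) gave p under 0.05 in 14 of 36 tests. Libraries of 1 brain share its number, but residuals of same-brain libraries correlated by only -0.054 to 0.0801. Symbols came from GENCODE vM21 (53360 of 53465 identifiers matched) and upstream sequences from RefSeq GRCm38.p6. Intervals are exact at 95% and cover counting error only. Alternatives were other pseudocounts, minimums, normalizations and tools, the replicate block, and leaving out each library, plate or the neural libraries. The knockout wells, numbering 2784, were not used here.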

Additional observations from a re-analysis of the deposited data

Results flagged for a closer look

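Notch1 was picked out because its direction between populations turned round between the assays, with no overlap of the groups in either. For neural minus mural cells the difference was 1.93 on the log2 scale in bulk, where 3 of 3 neural libraries lay above every mural library, and -1.92 in single cells, where the neural level in CPM lay below the mural one on 3 of 3 plates. For neural minus endothelial cells it was 0.75 in bulk and -2.01 in single cells, again with 3 of 3 libraries or plates on each side. The difference between the assays was not tested, and the neural bulk libraries also differ from the others in their kits.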

How the results depend on the processing

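No called difference of a member changed direction under any alternative run. These values were recomputed for the called differences and for 3 uncalled ones in bulk and 2 in single cells. In bulk, 1266 of 1344 kept direction and side of the threshold, 70 lost the call, 6 gained one (neural minus mural Jag1: pseudocount 10, quantile normalization, edgeR, DESeq2, and without library Mi-340 or Mi-346) and 2 uncalled ones changed sign: neural minus mural Notch3 to -0.046 with quantile normalization and mural minus endothelial Jag1 to -0.011 without library Ec-340 (up to 0.48 without other libraries). In single cells 437 of 458 held, 20 lost the call and 1 uncalled one changed sign, mural minus endothelial Notch1 to 0.057 without plate 1 (down to -0.0897 without another plate). Over all uncalled differences, 13 of 27 in bulk gained a call under at least 1 alternative (25 of 551 values, Jag1 included) and 6 of 31 in single cells (8 of 252), each in its original direction. With the brain as a replicate block the members called were 6, 3, 8 and 5 in neural, mural, endothelial and microglial cells, losing endothelial Dll3 alone, and 40 pairwise differences were called; with the plate as a block the single-cell counts were 4, 5, 6 and 5, and 30. Without the neural libraries 4633 genes were called in endothelial cells against 8322, in a test with fewer libraries. DESeq2 called 2419, 1051, 1070 and 2617 genes in the neural, mural, endothelial and microglial gates against 3694, 2027, 2167 and 4026 by edgeR, and the cause was not tested.

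Leaving out 1 bulk library at a time gave 6 to 7 members called in neural, 3 to 4 in mural, 7 to 9 in endothelial and 5 to 5 in microglial cells, among 10506 to 12999, 6824 to 9030, 7257 to 8576 and 7237 to 9579 genes, with 35 to 41 pairwise differences and 12 to 15 exact permutation tests. Leaving out 1 plate gave 0 to 7, 4 to 5, 3 to 7 and 4 to 5 members, among 1508 to 4474, 739 to 2526, 717 to 2856 and 1686 to 4762 genes, with 16 to 34 pairwise differences; without plate 1 or plate 2 fewer members passed the count filter, Dll1, Dll3 and Dll4 among those not tested. The share of cells ranged over plates left out from 17.9 to 22.9% for Dll1, 18.6 to 20.9% for Dll3, 40.0 to 44.8% for Dll4, 39.0 to 40.6% for Jag1, 26.7 to 31.1% for Jag2, 49.5 to 60.9% for Notch1, 16.2 to 24.3% for Notch2, 78.1 to 80.0% for Notch3 and 49.5 to 55.2% for Notch4, each in its highest gate. Thinned to 1500 transcripts per cell these shares were 6.50, 1.63, 14.2, 11.1, 9.78, 19.0, 6.19, 42.4 and 18.7%, so depth sets their size, and over 3000 transcripts that of Notch3 was 84.9%. Without scaling by length the makeup moved to 58.6% Notch1 and 55.5% Dll1 in neural, 36.6% Notch3 in mural, 36.2% Notch4 and 47.3% Jag2 in endothelial and 74.2% Jag2 in microglial cells. With the length scaling kept, the shares of these members ranged over libraries left out from 47.9 to 48.5%, 57.4 to 58.1%, 45.7 to 46.6%, 48.0 to 51.3%, 38.4 to 40.0% and 63.1 to 68.7%, with Notch2 at 61.9 to 70.6% of microglial receptors and Jag1 at 91.1 to 94.5% of mural ligands.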

Other observations

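Wells with no gate or another gate than the 4 numbered 62, and 23 of them held over 1500 transcripts. These held 38 transcripts of Notch3, 26 of Notch1, 22 of Notch2 and 10 of Jag1, and they entered no comparison.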
